A study of Mus musculus with 16 samples.

Results

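Fibroblast growth factor (FGF) signaling was followed through 9 genes, 3 for each of 3 roles, out of the 55414 gene identifiers counted in 16 RNA-Seq libraries of cultured mouse chondrocytes. The members were chosen by name, with earlier results of these data known. *Fgfr1*, *Fgfr2* and *Fgfr3* encode receptors, *Fgf2*, *Fgf7* and *Fgf18* encode ligands, and *Spry2*, *Spry4* and *Dusp6* encode feedback inhibitors. All 9 were found in every count file and all 9 passed the filter on low counts in every comparison. The cells were chondrocyte-enriched cultures from epiphyseal cartilage of 3- to 4-day-old mice. They came either from heterozygous *Notch2tm1.1Ecan* mice, called *Notch2* mutant here, or from wild-type littermates, called control. The mutant allele is a germline allele, present in every cell type of the culture, and it places a stop codon before the PEST domain, so that the NOTCH2 protein is more stable and signals more. Each genotype was kept for 6 h with either PBS as vehicle or 50 ng/ml TNFα, with 4 libraries in each of the 4 groups, each labelled a biological replicate and pooled from male and female mice. Neither the number of mice nor the number of litters behind a library is given, so the p values measure the spread between these libraries. The labels give removal of serum for the TNFα groups only, whereas the study's text gives it for vehicle as well. If the labels are right, TNFα and serum removal cannot be told apart in the comparisons of TNFα with vehicle.

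FGF ligands bind receptor tyrosine kinases together with heparan sulfate on the cell surface and in the matrix, and the activated receptor signals through adaptors and the RAS and ERK cascade. ERK activity induces its own brakes. The Sprouty proteins SPRY2 and SPRY4 act upstream on receptor signaling to RAS, and the phosphatase DUSP6 removes phosphate from ERK. In cartilage FGFR3 restrains the proliferation of growth plate chondrocytes and FGF18 is a ligand for it, FGFR1 is prominent in hypertrophic and articular chondrocytes, FGFR2 in perichondrium and mesenchymal condensations, FGF2 is held in the pericellular matrix, and FGF7, or keratinocyte growth factor, is made by mesenchymal cells and acts on an epithelial form of FGFR2.

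The libraries held 3439726 to 44237300 counts on genes, the shallowest being *Notch2* mutant TNFα replicate 4. *Heyl*, a Notch target, was at 0.232 ± 0.0617 CPM (counts divided by library size and put on a common scale) in control vehicle and 1.95 ± 0.411 CPM in *Notch2* mutant vehicle cells (SD, n = 4), whereas *Notch2* itself does not check the genotype, since both alleles are counted. Replicate 4 of control vehicle and replicate 4 of control TNFα stood apart from the other libraries of their groups. The summed level of 9 NF-κB targets, a readout of TNFα, was 1223 CPM in control vehicle replicate 4, against a group median of 163.6 CPM, and 6182 CPM in control TNFα replicate 4, the lowest of its group, against a median of 7155 CPM. Among the 7 members past the test for TNFα in control cells (44.2% of all genes passed it), control TNFα replicate 4 lay between its other 3 replicates and the vehicle cells for 5, and control vehicle replicate 4 lay between its other 3 replicates and the TNFα cells for 5. The share of all genes placed in this way is not given here, so these counts are a description only. Values without these 2 libraries, a choice made with earlier results of these data known, are therefore given beside the results that rest on them.

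Levels are CPM on library sizes scaled by the trimmed mean of M values, and between genes they are compared per kilobase of exon. In control vehicle cells the receptors were the most abundant members per length. *Fgfr3* stood at 38.2 CPM per kb and *Fgfr2* at 36.0 CPM per kb, with overlapping libraries, followed by *Fgfr1* at 24.9 and the ligand *Fgf7* at 13.6 CPM per kb. *Fgf2* was at 5.86, *Dusp6* at 3.24 and *Spry2* at 3.20 CPM per kb, the last 2 overlapping. *Fgf18* at 1.09 and *Spry4* at 0.748 CPM per kb were the lowest and overlapped as well. *Fgfr3* exceeded 96.4% of 21190 genes per length and *Spry4* exceeded 43.6%. The order of *Fgfr3* and *Fgfr2* turned when the longest transcript was used as length in place of all exons, so their order depends on the length chosen.

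With TNFα this order changed. In *Notch2* mutant cells with TNFα, *Fgfr1* was the most abundant member at 29.4 CPM per kb, followed by *Fgf7* at 14.6 and *Fgfr2* at 12.7, none of them overlapping with the next. *Fgfr3* followed at 3.75 CPM per kb and overlapped with *Dusp6* at 3.30 CPM per kb, a gene that it had exceeded by far in control vehicle cells. In control cells with TNFα the order was *Fgfr1* at 31.9, *Fgfr2* at 19.0, *Fgf7* at 11.5 and *Fgfr3* at 7.96 CPM per kb, the last 2 overlapping.

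**Figure D1:**
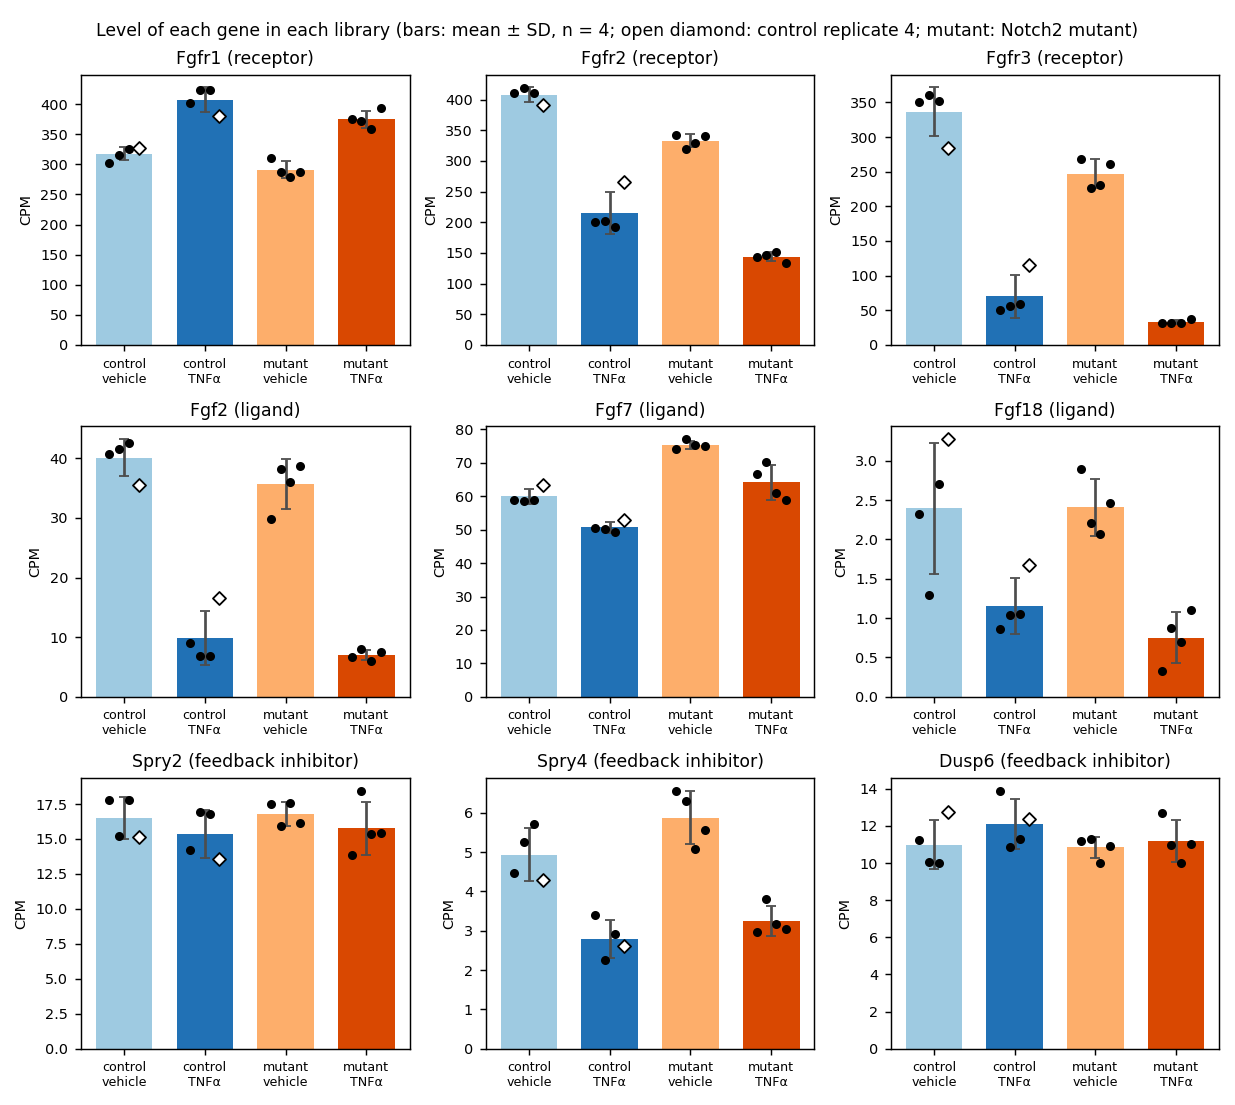
Level of each of the 9 genes in CPM (vertical axes, each starting at 0) in the 4 groups of 4 libraries. Bars are means with SD, points are libraries, and open diamonds mark replicate 4 of the control groups. Fgfr2, Fgfr3 and Fgf2 are lower with TNFα in both genotypes, Fgfr1 is higher, and Spry2 and Dusp6 stay within overlapping ranges.

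TNFα lowered 2 of the 3 receptors and raised *Fgfr1*, lowered all 3 ligands, and among the feedback inhibitors lowered *Spry4*. In control cells 7 of the 9 members passed the test, where 44.2% of the 19338 genes tested did, 1 upward (23.3% of genes) and 6 downward (20.9% of genes). In *Notch2* mutant cells the same 7 members passed in the same directions, where 44.5% of 19633 genes did (22.6% higher and 21.9% lower). A fall of at least 1 on the log2 scale was measured for 3 members in control and 4 in *Notch2* mutant cells, against 3.31 and 4.65% of all genes. The libraries of the treatments did not overlap for 6 members in control cells (41.8% of genes) and for 7 in mutant cells (40.3% of genes). Since the members were chosen with earlier results known, their counts beside these shares, here and between genotypes, are a description only. The median change of all genes was 0.039 on the log2 scale in control and 0.026 in mutant cells. Adjusted p values throughout come from the quasi-likelihood test of edgeR, adjusted by the Benjamini-Hochberg method across all genes that were tested, and the threshold is 0.05.

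*Fgfr3* (chromosome 5, 33879018 to 33894412, plus strand, GRCm39) had the largest change of the 9 members. Control vehicle libraries held 349.9, 360.0, 352 and 285 CPM, and control TNFα libraries held 50.2, 56.1, 58.8 and 116 CPM. *Notch2* mutant vehicle libraries held 269, 227, 231 and 261 CPM, and *Notch2* mutant TNFα libraries held 31.2, 32.3, 31.9 and 37.0 CPM. Every TNFα library was below every vehicle library, and the 4 mutant TNFα libraries were below all others. With TNFα *Fgfr3* fell by 2.25 ± 0.30 on the log2 scale (± SE, 4.76-fold lower) in control cells (adjusted p = 0.00103) and by 2.92 ± 0.075 (7.59-fold lower) in *Notch2* mutant cells (adjusted p = 6.18e-22). Without replicate 4 of both control groups, the fall in control cells was 2.67 ± 0.049 with an adjusted p of 4.50e-26. The remaining 3 control libraries held 354 ± 5.30 CPM with vehicle and 55.0 ± 4.38 CPM with TNFα. Exons of *Fgfr3* share 13.1% of their length with *G630022F23Rik* on the opposite strand, and the strand setting of the counting is not given in the sources used here. *G630022F23Rik* was lower with TNFα as well, at 1.32 ± 0.340 CPM in control vehicle and 0.402 ± 0.224 CPM in control TNFα cells (adjusted p = 0.00126), and at 0.994 ± 0.327 and 0.215 ± 0.227 CPM in *Notch2* mutant cells (adjusted p = 7.99e-05), and its part in the counts of *Fgfr3* was not tested.

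*Fgfr2* (chromosome 7, 129763471 to 132725079, minus strand, GRCm39) moved in the same direction by less. Control vehicle libraries held 410.4, 419.5, 411 and 391 CPM and control TNFα libraries 201, 202.5, 192.5 and 266 CPM. *Notch2* mutant vehicle libraries held 342, 319.7, 329 and 341 CPM and *Notch2* mutant TNFα libraries 143, 146, 151 and 133.5 CPM. None of the 4 groups overlapped with another, and control TNFα replicate 4 again lay nearest to the vehicle cells. *Fgfr2* fell by 0.91 ± 0.094 in control cells (1.88-fold lower, adjusted p = 2.97e-05) and by 1.21 ± 0.060 in *Notch2* mutant cells (2.31-fold lower, adjusted p = 1.27e-15). The fall in control cells was 1.05 ± 0.040 without replicate 4 of both groups. Exons of *Fgfr2* in the annotation used share 2.77% of their length with *Ctbp2* on the same strand. *Ctbp2* was at 42.2 ± 0.898 CPM in control vehicle and 38.0 ± 0.854 CPM in control TNFα cells (adjusted p = 0.045). In *Notch2* mutant cells it was at 44.9 ± 1.58 and 39.4 ± 3.40 CPM (adjusted p = 0.0551). Its part in the counts of *Fgfr2* was not tested.

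The stretches upstream of the starts of these 2 receptor genes are shown because they are the receptors that fell. Each is the 250 bases before a gene start in RefSeq on GRCm38.p6, read 5′ to 3′ on the strand of the gene. Capitals mark matches on either strand to GGGCGG, the GC box core bound by SP1, and to TGGGAA, the core bound by RBPJ, the DNA-binding partner of NOTCH. For *Fgfr3* the upstream of its 2 RefSeq starts is shown, chr5:33721474-33721723 on the plus strand, and for *Fgfr2* chr7:130266809-130267058 on the minus strand.
Fgfr3: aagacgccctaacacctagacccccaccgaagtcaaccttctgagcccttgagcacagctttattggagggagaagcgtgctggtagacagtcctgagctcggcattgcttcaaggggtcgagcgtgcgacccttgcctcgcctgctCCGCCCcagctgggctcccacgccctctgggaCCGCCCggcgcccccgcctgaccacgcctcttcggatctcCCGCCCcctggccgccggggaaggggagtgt
Fgfr2: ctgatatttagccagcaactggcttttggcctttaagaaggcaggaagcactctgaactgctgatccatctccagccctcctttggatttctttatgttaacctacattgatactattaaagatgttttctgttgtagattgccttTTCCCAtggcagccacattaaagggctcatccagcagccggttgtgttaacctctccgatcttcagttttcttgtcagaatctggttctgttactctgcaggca
The *Fgfr3* stretch held 3 GC boxes and had 66.8% G and C, whereas the *Fgfr2* stretch held none, held 1 RBPJ core and had 44.0% G and C. Of 32851 such stretches in RefSeq, 32.7% held a GC box and 21.6% an RBPJ core on either strand, and of the 8 stretches that matched 7 of the members, 4 held a GC box and 2 an RBPJ core. TGANTCA, the AP-1 motif, was found in 0 of the 8 (6.75% of all stretches), and so was the κB consensus (3.90% of all stretches). These matches describe letters in a short window and do not show binding. *Fgfr1* and *Spry4* had no entry.

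*Fgfr1* (chromosome 8, 26003670 to 26066824, plus strand, GRCm39) was the one member that rose. Control vehicle libraries held 303, 316, 326 and 327 CPM and control TNFα libraries 401, 423, 423 and 379.9 CPM. *Notch2* mutant vehicle libraries held 311, 287.5, 279 and 286.5 CPM and *Notch2* mutant TNFα libraries 375, 373, 359 and 393 CPM. Every TNFα library was above every vehicle library, while the genotypes overlapped under each treatment. *Fgfr1* rose by 0.36 ± 0.049 on the log2 scale in control cells (1.29-fold higher, adjusted p = 2.63e-06) and by 0.36 ± 0.058 in *Notch2* mutant cells (1.29-fold higher, adjusted p = 7.69e-06).

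Per length, *Fgfr1* was thus the most abundant of the 3 receptors with TNFα and the least abundant with vehicle, in both genotypes. *Fgfr3* made up 38.5 ± 2.36% of the summed level of the 3 receptors in control vehicle, 13.3 ± 4.41% in control TNFα, 34.9 ± 1.25% in *Notch2* mutant vehicle and 8.19 ± 0.533% in *Notch2* mutant TNFα cells (SD, n = 4). *Fgfr1* made up 25.2 ± 1.78, 54.6 ± 6.495, 28.4 ± 0.885 and 64.1 ± 1.43% in the same order. The share of *Fgfr2* was 36.4 ± 0.713, 32.2 ± 2.33, 36.7 ± 0.892 and 27.7 ± 1.83%. In control TNFα replicate 4 the share of *Fgfr3* was 19.8% and that of *Fgfr1* 44.9%, the highest and the lowest of that group. The summed receptor level itself was 99.0 ± 4.64 CPM per kb in control vehicle, 58.8 ± 5.12 in control TNFα, 80.2 ± 4.12 in *Notch2* mutant vehicle and 45.8 ± 0.705 CPM per kb in *Notch2* mutant TNFα cells. These shares are a description of the levels and were not tested on their own.

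**Figure D2:**
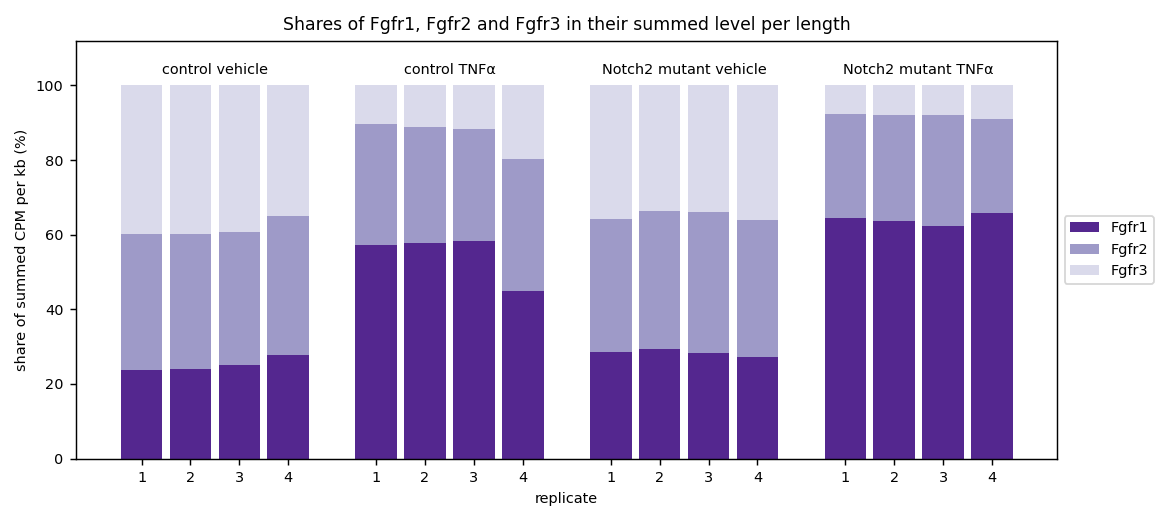
Shares of Fgfr1, Fgfr2 and Fgfr3 in their summed CPM per kb of exon (vertical axis, %), 1 bar per library and 4 libraries per group. The share of Fgfr3 ranges from 34.9 to 39.8% in control vehicle and from 7.76 to 8.97% in Notch2 mutant TNFα libraries, and control TNFα replicate 4 keeps a larger share, 19.8%, than the other control TNFα libraries.

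Of the ligands, *Fgf2* (chromosome 3, 37402473 to 37464257, plus strand, GRCm39) had the largest change. Control vehicle libraries held 40.7, 41.6, 42.5 and 35.6 CPM and control TNFα libraries 9.06, 6.91, 6.88 and 16.6 CPM. *Notch2* mutant vehicle libraries held 29.8, 38.2, 36.05 and 38.75 CPM and *Notch2* mutant TNFα libraries 6.62, 8.01, 6.08 and 7.45 CPM. The treatments did not overlap in either genotype, and control TNFα replicate 4 was the highest of the TNFα libraries. *Fgf2* fell by 2.00 ± 0.29 in control cells (4.00-fold lower, adjusted p = 0.00144), or by 2.46 ± 0.097 without replicate 4 of both groups, and by 2.36 ± 0.11 in *Notch2* mutant cells (5.14-fold lower, adjusted p = 3.45e-16). Exons of *Fgf2* share 44.9% of their length with *Nudt6*, which is on the opposite strand. *Nudt6* itself was at 2.80 ± 0.339 CPM in control vehicle and 4.10 ± 0.773 CPM in control TNFα cells (adjusted p = 0.0218), and at 2.97 ± 0.658 and 3.70 ± 0.489 CPM in *Notch2* mutant cells (adjusted p = 0.102).

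*Fgf7* (chromosome 2, 125876578 to 125934218, plus strand, GRCm39) changed little with TNFα but passed the test in both genotypes. It was at 60.0 ± 2.25 CPM in control vehicle and 50.7 ± 1.58 CPM in control TNFα cells, a fall of 0.23 ± 0.055 on the log2 scale (adjusted p = 0.00126). In *Notch2* mutant cells it was at 75.4 ± 1.17 CPM with vehicle and 64.2 ± 5.20 CPM with TNFα, a fall of 0.22 ± 0.067 (adjusted p = 0.00843).

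*Fgf18* (chromosome 11, 33067014 to 33097828, minus strand, GRCm39) was read from few counts, 4 to 107 per library. Control vehicle libraries held 2.32, 1.29, 2.70 and 3.27 CPM and control TNFα libraries 0.867, 1.04, 1.05 and 1.67 CPM, so that the lowest vehicle library lay within the TNFα range. *Notch2* mutant vehicle libraries held 2.89, 2.21, 2.075 and 2.46 CPM and *Notch2* mutant TNFα libraries 0.331, 0.877, 0.702 and 1.10 CPM, with no overlap. *Fgf18* fell by 1.03 ± 0.29 in control cells (2.04-fold lower, adjusted p = 0.00551) and by 1.80 ± 0.30 in *Notch2* mutant cells (3.48-fold lower, adjusted p = 1.46e-05).

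The feedback inhibitors did not move together. *Spry4* (chromosome 18, 38719300 to 38736025, minus strand, GRCm39) held 4.48, 5.25, 5.73 and 4.285 CPM in control vehicle and 3.39, 2.25, 2.915 and 2.61 CPM in control TNFα libraries. It held 6.54, 6.31, 5.08 and 5.57 CPM in *Notch2* mutant vehicle and 2.98, 3.80, 3.16 and 3.035 CPM in *Notch2* mutant TNFα libraries. All TNFα libraries were below all vehicle libraries. *Spry4* fell by 0.82 ± 0.18 in control cells (1.77-fold lower, adjusted p = 0.000548) and by 0.82 ± 0.16 in *Notch2* mutant cells (1.77-fold lower, adjusted p = 0.000127).

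*Spry2* (chromosome 14, 106128766 to 106136446, minus strand, GRCm39) lay between 13.5 and 18.4 CPM over the 16 libraries, and *Dusp6* (chromosome 10, 99086564 to 99103361, plus strand, GRCm39) between 9.97 and 13.9 CPM. The difference of *Spry2* between TNFα and vehicle was -0.094 ± 0.098 on the log2 scale in control (adjusted p = 0.477) and -0.079 ± 0.099 in *Notch2* mutant cells (adjusted p = 0.565). For *Dusp6* it was 0.13 ± 0.11 in control (adjusted p = 0.371) and 0.048 ± 0.11 in *Notch2* mutant cells (adjusted p = 0.766). These differences did not pass the test, which does not show that the levels were equal. Exons of *Spry2* and *Dusp6* share part of their length, 20.2% for *Dusp6*, with genes on the opposite strand that are not among the identifiers of the count files. *Dusp6* also shares 2.77% with *Gm34921* on the opposite strand, which is among those identifiers, and its part in the counts of *Dusp6* was not tested.

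**Figure D3:**
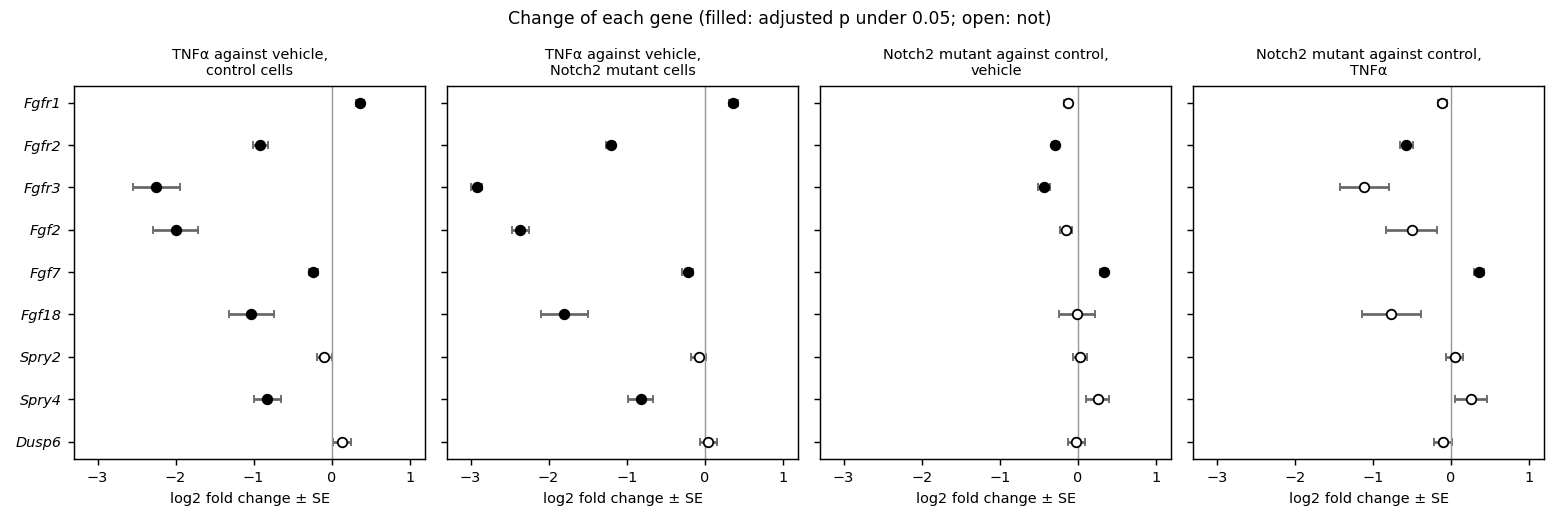
Log2 fold changes of the 9 genes with SE (horizontal axes) for TNFα against vehicle in each genotype and for Notch2 mutant against control with each treatment, 4 libraries per group. Filled points passed an adjusted p of 0.05. Fgfr3 and Fgf2 lie farthest to the left with TNFα, Fgfr1 alone is filled to the right, and Fgf7 alone is filled to the right between genotypes.

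The comparison of genotypes asked how the gain of *Notch2* function bears on the same genes. With vehicle, *Fgfr2* and *Fgfr3* were lower and *Fgf7* was higher in *Notch2* mutant than in control cells, 3 of the 9 members, where 10.5% of 19432 genes passed (6.19% higher and 4.35% lower). For these 3 members no mutant library lay within the control range, as for 16.2% of genes. *Fgfr2* was 408 ± 12.2 CPM in control and 333 ± 10.6 CPM in *Notch2* mutant vehicle cells, a log2 difference of -0.29 ± 0.047 (adjusted p = 0.000162). *Fgfr3* was 337 ± 35.0 and 247 ± 21.1 CPM, a difference of -0.44 ± 0.077 (adjusted p = 0.00153). For *Fgfr3* this call was lost in the fit to all 16 libraries (adjusted p = 0.262), whereas without control vehicle replicate 4 the difference was -0.52 ± 0.056 with an adjusted p of 6.09e-07. *Fgf7* was 1.26-fold higher in *Notch2* mutant vehicle cells, a difference of 0.34 ± 0.054 (adjusted p = 0.000115), and its 4 mutant libraries held 74.3, 77.0, 75.2 and 75.0 CPM against 58.9, 58.7, 58.9 and 63.3 CPM in control. The other 6 members did not pass, with differences between -0.15 ± 0.079 for *Fgf2* (adjusted p = 0.264) and 0.26 ± 0.15 for *Spry4* (adjusted p = 0.336). For *Fgfr1* the difference was -0.12 ± 0.051 (adjusted p = 0.156), or -0.16 without *Notch2* mutant vehicle replicate 1, where it passed (adjusted p = 0.00667).

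With TNFα, *Fgfr2* was lower and *Fgf7* higher in *Notch2* mutant cells, 2 of the 9 members, where 9.94% of 19227 genes passed (5.63% higher and 4.31% lower). *Fgfr2* was 215 ± 33.8 CPM in control and 144 ± 7.44 CPM in *Notch2* mutant TNFα cells, a difference of -0.57 ± 0.084 (adjusted p = 9.95e-05). Without control TNFα replicate 4 that difference was smaller, -0.47 ± 0.058 (adjusted p = 1.08e-06). *Fgf7* was 1.28-fold higher, a difference of 0.36 ± 0.066 (adjusted p = 0.000341), with 66.5, 70.2, 61.1 and 58.8 CPM in *Notch2* mutant and 50.35, 50.3, 49.3 and 52.95 CPM in control TNFα libraries. *Fgfr3* did not overlap between the genotypes either, which makes 3 members without overlap (14.8% of genes), but its difference of -1.11 ± 0.31 missed the threshold (adjusted p = 0.0904). That call rested on control TNFα replicate 4, since without that library the difference was smaller, -0.77 ± 0.078, and the adjusted p was 2.88e-08. It also passed with DESeq2 (adjusted p = 0.00409) and in the fit to all 16 libraries (adjusted p = 0.00736). *Fgf18* was lower by 0.76 ± 0.38 and *Fgf2* by 0.50 ± 0.33, with overlapping libraries and adjusted p values of 0.247 and 0.456. Without control TNFα replicate 4 the differences were -0.53 ± 0.42 for *Fgf18* and -0.12 ± 0.15 for *Fgf2* (adjusted p = 0.503 and 0.707), and without *Notch2* mutant TNFα replicate 1 that of *Fgf18* was -0.49 (adjusted p = 0.539). The differences of *Fgfr1*, *Spry2*, *Spry4* and *Dusp6* lay between -0.11 ± 0.061 and 0.26 ± 0.20, with adjusted p values of 0.336 to 0.849. The comparisons of the genotypes share libraries with those of TNFα against vehicle, so their values are set side by side only.

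Whether TNFα acted differently in the genotypes was tested as the interaction over all 16 libraries. By edgeR, 0 of the 9 members passed at an adjusted p of 0.05, where 0.474% of 21321 genes did. An edgeR unadjusted p under 0.05 was found for 1 member and for 1856 of the 21321 genes, so this count is a description only. By DESeq2, 0 members passed as well (*Fgf18* was given no adjusted p) and 2 had an unadjusted p under 0.05. The share of all genes with such a p by DESeq2 is not given here. The difference of the TNFα effects, *Notch2* mutant less control, was -0.29 ± 0.10 for *Fgfr2* (edgeR unadjusted p = 0.0064, adjusted p = 0.266) and -0.67 ± 0.31 for *Fgfr3* (unadjusted p = 0.0536, adjusted p = 0.586). Without replicate 4 of both control groups the value for *Fgfr3* was -0.24 ± 0.095 (adjusted p = 0.381) and that for *Fgfr2* was -0.15 ± 0.076 (adjusted p = 0.620). For *Fgf18* it was -0.76 ± 0.43 (adjusted p = 0.659). The larger falls of *Fgfr2*, *Fgfr3* and *Fgf18* in *Notch2* mutant cells were thus not shown to differ from those in control cells.

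The markers of cell types moved with both conditions. In a culture measured as a whole, fewer cells of a type and less RNA per cell cannot be told apart. Of 15 chondrocyte markers, *Col2a1* and *Acan* among them, 12 were lower and 0 higher with TNFα in each genotype. Of all genes, 20.9% were lower with TNFα in control and 21.9% in *Notch2* mutant cells. All 15 markers were lower in *Notch2* mutant cells under both treatments, where 4.35 and 4.31% of all genes were lower with vehicle and TNFα. Their summed level ranged from 51930 to 55740 CPM in control vehicle, 37670 to 44650 CPM in control TNFα, 32390 to 37630 CPM in *Notch2* mutant vehicle and 20410 to 23290 CPM in *Notch2* mutant TNFα libraries. The cultures thus carried the labelled cell type's defining markers at high levels, with *Col2a1*, the cartilage collagen, at 37600 ± 1614 CPM in control vehicle cells. *Col2a1* made up most of the sum and fell by 0.45 ± 0.063 on the log2 scale with TNFα in control cells. There *Acan* and *Sox9* fell by more, 1.33 ± 0.17 and 1.44 ± 0.19. *Col9a1* fell by less, 0.27 ± 0.046, and 3 of the 15 markers did not pass. The 10 fibroblast and perichondrium markers summed to 31790 to 34740, 31110 to 34130, 36230 to 38900 and 34810 to 42710 CPM in the same order of groups, with 5 of 10 higher and 2 lower in *Notch2* mutant cells with vehicle and 6 higher and 1 lower with TNFα, where 6.19 and 5.63% of all genes were higher and 4.35 and 4.31% lower. Macrophage markers were a small part, 63.7 to 69.4, 74.0 to 89.3, 115.0 to 133 and 155 to 173 CPM, of which 7 and 9 of 10 were higher in *Notch2* mutant cells with vehicle and TNFα. Endothelial markers summed to at most 24.0 CPM and skeletal muscle markers to at most 50.4 CPM in any library. Of 8 hypertrophic markers, 5 were lower and 2 higher with TNFα in control cells and 4 and 2 in *Notch2* mutant cells. Of all genes, 20.9 and 21.9% were lower and 23.3 and 22.6% higher. The sum of these 8 markers was higher with TNFα in both genotypes. It ranged from 1355 to 1557, 2081 to 2570, 999.1 to 1100 and 1711 to 1960 CPM in the same order of groups. The part of these shifts in the lower *Fgfr3* and *Fgfr2* and in the higher *Fgf7* was not tested.

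**Figure D4:**
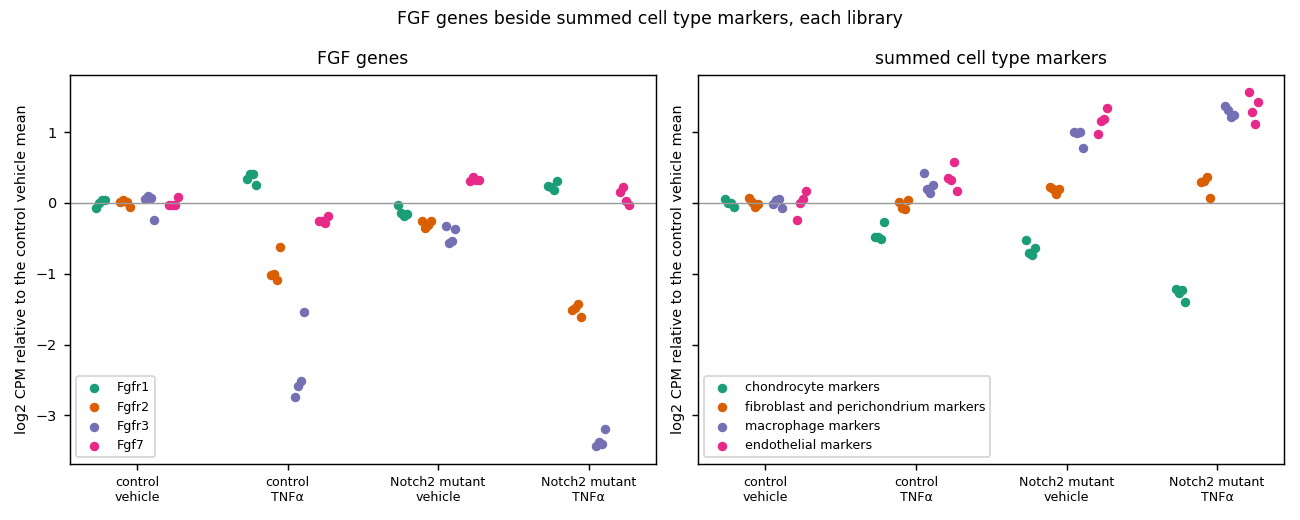
Levels of Fgfr1, Fgfr2, Fgfr3 and Fgf7 (left) and summed levels of 4 marker lists (right) in each library, as log2 of CPM relative to the mean of control vehicle (vertical axis), by group. The sum of the chondrocyte markers, most of which is Col2a1, is lower with TNFα and in Notch2 mutant cells. Fgfr3 lies well below that sum with TNFα, while macrophage and endothelial markers are higher in Notch2 mutant cells from low starting levels.

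The rest of the FGF system was read from 5 further lists, also chosen with earlier results of these data known. As a description, their counts are set beside the shares of all genes that passed. These were 44.2 and 44.5% with TNFα in control and *Notch2* mutant cells, and 10.5 and 9.94% between genotypes with vehicle and TNFα. Among the other receptors and coreceptors, 2 of 3 tested were lower with TNFα in control cells (20.9% of all genes) and 3 of 3 in *Notch2* mutant cells (21.9% of all genes), too few genes for a summary of the list. *Fgfr4*, the fourth signaling receptor, was at 7.96 ± 1.92 CPM in control vehicle and 1.47 ± 0.779 CPM in control TNFα cells, and fell by 2.38 ± 0.29 (adjusted p = 2.21e-05). In *Notch2* mutant cells *Fgfr4* fell by 2.98 ± 0.23 (adjusted p = 1.63e-11). *Fgfrl1*, a receptor without a kinase domain, fell by 0.94 ± 0.083 in control and by 0.68 ± 0.067 in *Notch2* mutant cells (adjusted p = 1.34e-06 and 2.24e-09). *Klb*, the coreceptor β-Klotho, was at 0.464 ± 0.150 CPM in *Notch2* mutant vehicle and at no more than 2 counts in any *Notch2* mutant TNFα library (adjusted p = 0.00227), so no fold is given. Between genotypes, *Fgfrl1* was lower with vehicle by 0.19 ± 0.057 (adjusted p = 0.0315). With TNFα 0 of 4 passed by edgeR or DESeq2, with 0 at an unadjusted p under 0.05 by either (4116 of 19227 genes by edgeR).

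The list of 19 other FGF ligands also holds *Fgf11*, *Fgf12*, *Fgf13* and *Fgf14*, which encode intracellular factors. Its counts are therefore not those of receptor ligands alone. Of the 19 genes, 6 held at most 2 counts in every library, namely *Fgf3*, *Fgf4*, *Fgf8*, *Fgf15*, *Fgf16* and *Fgf23*. With TNFα 1 of 11 tested was higher and 3 lower in control cells, and 1 of 12 higher and 4 lower in *Notch2* mutant cells. These are 36.4 and 41.7% of the list genes tested, close to the shares of all genes, 44.2 and 44.5%. The one that rose was *Fgf1*, a ligand of all FGF receptors, from 0.168 ± 0.128 to 1.55 ± 0.546 CPM in control (adjusted p = 1.03e-05) and from 0.265 ± 0.140 to 1.15 ± 0.220 CPM in *Notch2* mutant cells (adjusted p = 0.000242), on at most 34 counts. *Fgf21*, an endocrine FGF, fell by 1.57 ± 0.21 in control and by 1.78 ± 0.21 in *Notch2* mutant cells (adjusted p = 1.87e-05 and 5.98e-08). *Fgf5* fell by 1.31 ± 0.35 in control and by 2.30 ± 0.28 in *Notch2* mutant cells (adjusted p = 0.00412 and 1.23e-07). *Fgf12* went from 0.505 ± 0.239 to 0.0896 ± 0.139 CPM with TNFα in *Notch2* mutant cells (adjusted p = 0.012), on at most 34 counts and with overlapping libraries. With vehicle, *Fgf5* was higher in *Notch2* mutant than in control cells by 0.86 ± 0.18 (adjusted p = 0.00186) and *Fgf21* lower by 0.65 ± 0.15 (adjusted p = 0.00494). With TNFα 1 of 11 genes of the list passed between the genotypes, *Fgf22*, on at most 11 counts. It was at 0.578 ± 0.120 CPM in control and 0.0916 ± 0.114 CPM in *Notch2* mutant cells (adjusted p = 0.029). By DESeq2 0 of 11 passed, with 3 at an unadjusted p under 0.05. By edgeR 3 of 11 had such a p as well, and 4116 of 19227 genes did.

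Of 16 other feedback inhibitors and FGF or ERK induced genes, 3 were higher and 6 lower with TNFα in each genotype, 56.2% of the list against 44.2 and 44.5% of all genes. *Il17rd*, also named Sef, an inhibitor of FGF receptor signaling, rose by 0.85 ± 0.12 in control (adjusted p = 4.07e-06) and by 1.00 ± 0.10 in *Notch2* mutant cells (adjusted p = 4.39e-09). *Phlda1*, an ERK-induced gene, rose by 1.35 ± 0.10 and 0.97 ± 0.095 (adjusted p = 9.64e-09 and 2.12e-09). *Egr1*, an immediate early transcription factor that ERK and serum induce, fell by 1.10 ± 0.097 in control and by 1.17 ± 0.072 in *Notch2* mutant cells (adjusted p = 5.28e-06 and 1.54e-13). The ERK phosphatase gene *Dusp5* fell by 0.70 ± 0.14 in control and by 0.59 ± 0.14 in *Notch2* mutant cells (adjusted p = 0.00033 and 0.000815). *Dusp7* fell by 0.48 ± 0.067 in control and by 0.72 ± 0.074 in *Notch2* mutant cells (adjusted p = 3.86e-06 and 5.08e-09). Between genotypes *Spry1*, another Sprouty gene, was higher in *Notch2* mutant cells by 0.91 ± 0.11 with vehicle (adjusted p = 2.27e-06) and by 0.90 ± 0.17 with TNFα (adjusted p = 0.000358), beside *Spry2* and *Spry4*, which did not pass. *Dusp4* was higher with vehicle by 0.77 ± 0.24 (adjusted p = 0.0408). *Ccnd1*, which encodes cyclin D1, was lower by 0.29 ± 0.048 with vehicle and by 0.23 ± 0.063 with TNFα (adjusted p = 0.000142 and 0.0164). With TNFα, *Il17rd* was higher in *Notch2* mutant cells by 0.31 ± 0.095 (adjusted p = 0.0367), and *Etv5*, an ERK-induced transcription factor, and *Phlda1* were lower by 0.44 ± 0.087 and 0.38 ± 0.074 (adjusted p = 0.000913 and 0.000774). Counts of this list were 2 higher and 1 lower with vehicle, and 2 higher and 3 lower with TNFα, 18.8 and 31.2% of the list against 10.5 and 9.94% of all genes.

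The 20 adaptor and ERK cascade genes changed by little. With TNFα 3 were higher and 7 lower in control cells, and 3 higher and 9 lower in *Notch2* mutant cells, 50.0 and 60.0% of the list against 44.2 and 44.5% of all genes. The median change of the list was -0.061 and -0.13 on the log2 scale. *Braf*, which encodes a kinase of the cascade, fell by 0.60 ± 0.088 in control and by 0.41 ± 0.079 in *Notch2* mutant cells. *Mapk3*, which encodes ERK1, rose by 0.28 ± 0.049 and 0.34 ± 0.057. *Grb2*, an adaptor, rose by 0.24 ± 0.060 in control cells. *Map2k1*, which encodes the ERK kinase MEK1, rose by 0.22 ± 0.0485 in control and by 0.24 ± 0.066 in *Notch2* mutant cells. The adjusted p of each of these values was 0.00369 or less. Between genotypes 0 of 20 passed by edgeR under either treatment. An edgeR unadjusted p under 0.05 was found for 3 with vehicle (4226 of 19432 genes) and for 1 with TNFα (4116 of 19227 genes). DESeq2 gave the same counts for the list.

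Of 17 heparan sulfate and FGF-binding partners, 7 were higher and 5 lower with TNFα in control cells, where 23.3% of all genes were higher and 20.9% lower, and 9 higher and 4 lower in *Notch2* mutant cells, where 22.6 and 21.9% of all genes were. *Fgfbp1*, which encodes a carrier that releases FGF from the matrix, was at 0.0816 ± 0.0677 CPM and at most 2 counts in control vehicle and at 0.861 ± 0.309 CPM in control TNFα cells, so no fold is given. In *Notch2* mutant cells *Fgfbp1* rose by 2.59 ± 0.46 (adjusted p = 4.04e-05). *Gpc2*, a glypican, rose by 1.24 ± 0.41 in control and 1.41 ± 0.33 in *Notch2* mutant cells with overlapping libraries. *Sdc2*, which encodes syndecan 2, fell by 0.33 ± 0.043 and 0.43 ± 0.057, and *Flrt1* by 0.75 ± 0.14 and 1.07 ± 0.14. Between genotypes 2 were higher and 3 lower under each treatment, 29.4% of the list against 10.5% of all genes with vehicle and 9.94% with TNFα. *Sdc1* was higher in *Notch2* mutant cells by 0.26 ± 0.054 with vehicle and 0.23 ± 0.058 with TNFα, and *Sulf1*, an enzyme that trims heparan sulfate, lower by 0.28 ± 0.046 and 0.29 ± 0.061. With vehicle *Fgfbp3* was higher by 0.84 ± 0.19 and *Flrt3* lower by 0.38 ± 0.11, and with TNFα *Gpc3* was higher by 0.32 ± 0.061. *Sdc4* was lower by 0.21 ± 0.046 with vehicle and by 0.41 ± 0.060 with TNFα. All values named for this list had an adjusted p of 0.0201 or less.

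**Figure D5:**
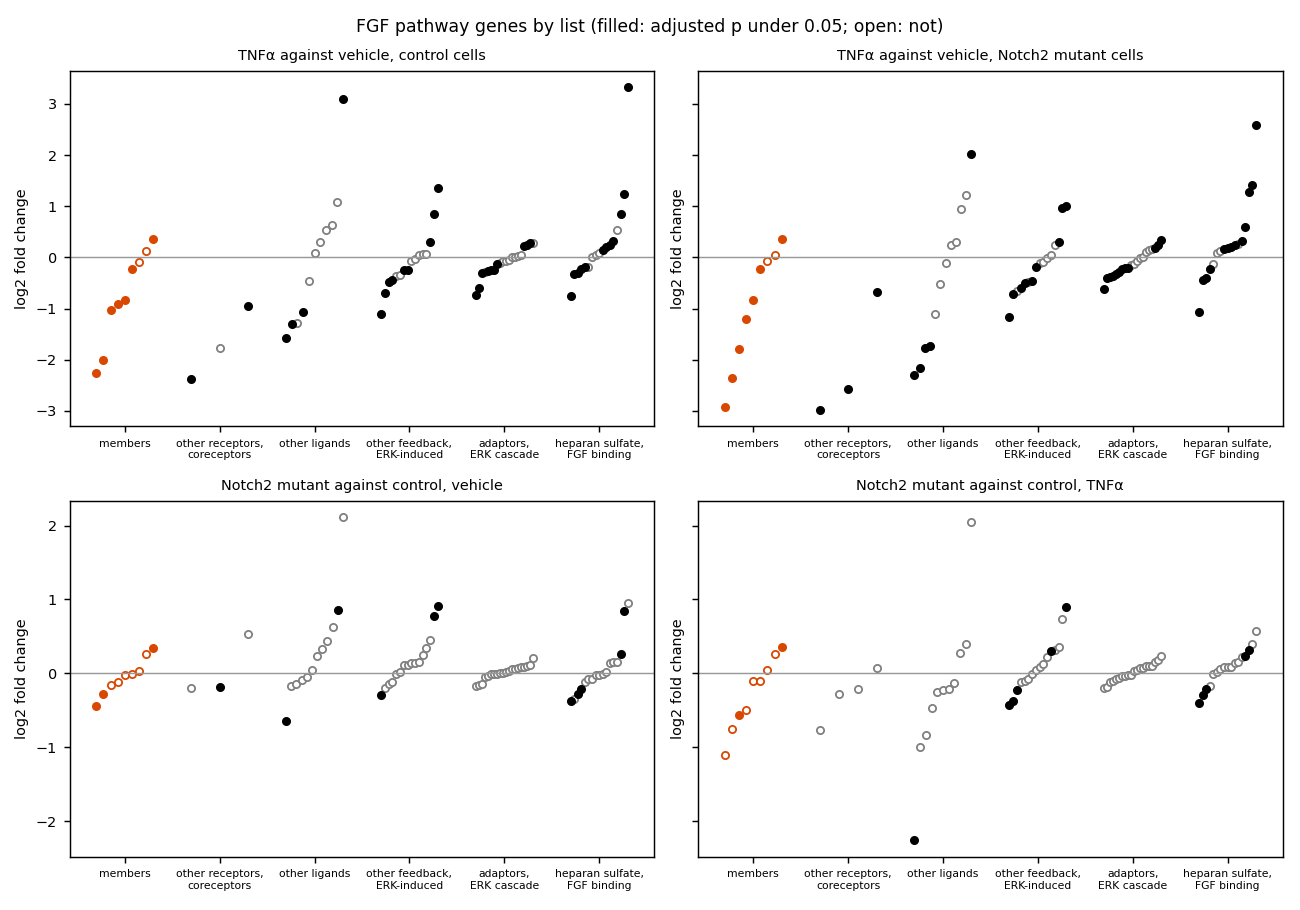
Log2 fold changes (vertical axes) of the 9 members (orange) and of 5 further lists of FGF pathway genes, each point a gene, sorted within its list, in the 4 comparisons. Filled points passed an adjusted p of 0.05. With TNFα the members and the other receptors reach below -2, as do the other ligands in Notch2 mutant cells. The 20 adaptor and ERK cascade genes stay within a narrow band, and between genotypes none of those 20 is filled.

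The genes whose log2 levels over the 16 libraries were most like a member were looked up among 10940 genes with at least 5 CPM on average. For *Fgfr3* these were *Gdf10* and *Epha2* (both r = 0.997), for *Fgfr2* *Susd5* (r = 0.996) and *P4ha1* (r = 0.994), and for *Fgf2* *Ccn2* (r = 0.994) and *Peg10* (r = 0.993). *Fgfr1* was most like *Cnppd1* (r = 0.982) and *Mxd1* (r = 0.977), *Fgf7* most like *Snx7* (r = 0.973) and *Fabp4* (r = 0.964), and *Spry4* most like *Anp32e* (r = 0.964) and *Trim27* (r = 0.955). For *Fgf18* they were *Rbmx2* (r = 0.925) and *Stard8* (r = 0.917). For *Spry2* and *Dusp6*, which did not separate the groups, the highest values were lower, with *Obi1* (r = 0.789) and *Ppp6r2* (r = 0.742) for *Spry2* and *Rps3a1* (r = 0.737) and *Zfp189* (r = 0.721) for *Dusp6*. The 16 points share the 4 groups and the 2 control libraries that stood apart, so these values describe the group pattern and nothing of shared control.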

How the data were processed

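The authors deposited, for each of 16 libraries, whole-number counts per Ensembl gene, not normalized. Per the labels, total RNA was made into stranded mRNA libraries and sequenced in one pool as paired reads, and the submitters' processing notes name GRCm38, HISAT2 2.1.0, SAMtools 1.9, Picard, HTSeq and DESeq2. The study's methods name GRCm39 instead. Gene names and positions are from GENCODE M39 on GRCm39, and upstream sequences from RefSeq on GRCm38.p6, and coordinates were not compared between them. The strand setting of the counting is not given in the sources used here. Entries that name no gene held 8.81 to 12.14% of each file and were left out.

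The members and gene lists were chosen with earlier results of these data known. Counts were fitted with edgeR 4.0.16 in R 4.3.3 (TMM, robust quasi-likelihood) to the 8 libraries of each comparison and to all 16 for the interaction, for genes with at least 10 counts summed over the libraries compared. No covariate was used. CPM were computed on TMM library sizes over the 16 libraries, and per-length levels on all exons of a gene. From each list the text names, in each comparison, the 2 genes with the highest and the 2 with the lowest fold change past the test, and for likeness the 2 genes with the highest Pearson r on log2(CPM + 0.5). 1 gene that this rule selects is left out here. For some of the genes named, the value in the other genotype or treatment is given as well. The rule's entries for *Klb*, *Fgf12* and *Fgf22* rest on few counts. The median depth was 17062419 counts on genes, and 3 counts were taken as the floor. This covers counting error only. The fits were also tested on simulated counts with known changes. Alternatives were DESeq2 1.42.0, RLE, filterByExpr, at least 1 count, an adjusted p of 0.1, a joint fit of the 16 libraries, replicate number as a blocking factor, each library left out, and both control replicates 4 left out.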

Additional observations from a re-analysis of the deposited data

Results flagged for a closer look

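In 4 of 36 groups of member levels, 1 library lay far from the other 3 of its group by Dixon's criterion, which chance alone meets in about 1 of 20 groups. All 4 were replicate 4 of a control group. *Fgfr3* was at 284.6 CPM in control vehicle replicate 4, below the other 3, and at 115.9 CPM in control TNFα replicate 4, above the other 3. *Fgfr2* was at 265.7 CPM in control TNFα replicate 4, above the other 3. *Fgf7* was at 63.32 CPM in control vehicle replicate 4, above the other 3 and away from the level of the TNFα cells.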

How the results depend on the processing

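The number of members past the test was 7 for TNFα in each genotype and 0 for the interaction under every alternative run. Between genotypes it ranged from 2 to 4 with vehicle and from 2 to 3 with TNFα. Of the values of single members, 296 of 305 kept their direction and side of the threshold when all libraries were kept, and 411 of 450 when libraries were left out. Those that changed sign passed the test neither before nor after. With the replicate number as a block, *Fgf18* with vehicle between genotypes became 0.021 and the interaction of *Spry4* -0.027, and the block changed 1 call, *Fgfr3* between genotypes with TNFα (adjusted p = 0.00014). The numbers were not taken to pair the libraries, since same-numbered libraries deviated from their group means with correlations of -0.241 to 0.225, and in 3 of 32 cases over the 4 comparisons a library deviated most like the one with its own number in the other group. With genes of 1 count or more kept, the interactions of *Fgfr1* and *Spry4* became -0.0027 and -0.0097. Without both control replicates 4, the interactions of *Fgfr1* and *Fgf2* became -0.039 and 0.10.

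With single libraries left out, signs turned for *Dusp6* with TNFα in *Notch2* mutant cells (-0.032 to 0.11), for *Fgf18* (-0.20 to 0.16), *Spry2* (-0.023 to 0.069) and *Dusp6* (-0.061 to 0.052) between genotypes with vehicle, for *Spry2* between genotypes with TNFα (-0.061 to 0.12), and for the interactions of *Fgfr1* (-0.024 to 0.041), *Fgf2* (-0.50 to 0.048), *Fgf7* (-0.028 to 0.049), *Spry2* (-0.080 to 0.091) and *Spry4* (-0.095 to 0.097). The cause of these changes was not tested. Depth limits *Fgf18* most, which rests on as few as 4 counts in a library. With CPM on raw totals, 35 of 36 group means moved by less than 1 SD, and with the longest transcript as length 6 of 12 receptor shares did.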
